A study of Mus musculus with 94 samples.

Results

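Beta-actin is measured by 5 separate probes on the arrays of this series, and in spleen of Hmgn mutant mice these probes did not move together. The account covers the 6 probes that the platform annotation assigns to Actb (5 probes) or Actg1 (1 probe), each kept apart, out of 25697 probes; that is 2 of 16593 named genes. The genes were chosen by the opposite differences of Actb probes between mutants and wild types in spleen and by their trend along the replicate number there, so all spleen differences and spleen trends of these probes are given as descriptions, without a test. Brain, liver and thymus did not enter that choice, and there the probes were tested.

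The arrays hold total RNA from brain, liver, spleen and thymus of male C57BL/6N mice, 17 weeks old. Mutants of Hmgn1, Hmgn3 or Hmgn5, genes for small chromatin proteins that bind nucleosomes, were set against wild types of the same line. The series design text calls the mutants homozygous. For every tissue a line gave 4 mutant arrays and 4 of wild types, with 3 wild-type livers in the Hmgn1 and Hmgn5 lines, so that 24 mice gave 94 arrays. The labels name the mutated gene and no further allele, promoter or Cre. They give wild types no line, which was read from blocks of mouse numbers, for 1 mouse by elimination. Nothing in the labels says that mice of a group came from separate litters or cages.

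Per array, 12245 to 16430 probes exceeded the noise. The targeted Hmgn3 probes were lower in mutants of their line in brain, spleen and thymus without overlap, for example at 105 to 108 in Hmgn3 mutant spleens against 359 to 467 in wild types for ILMN_2644719. The Hmgn5 probe was lower in thymus of its line (140 to 181 in mutants, 300 to 447 in wild types) but higher in liver (1126 to 1292 in mutants, 710 to 862 in wild types). In spleen its groups overlapped (4.17 to 22.4 in mutants, 20 to 30.1 in wild types) and it was not called, and they overlapped in brain too. The Hmgn1 probe was lower in its line without overlap in brain (2158 to 2320 in mutants, 2549 to 2745 in wild types) and thymus (1227 to 1451 in mutants, 1507 to 2300 in wild types). It overlapped in liver and spleen, and was called in none of the 4 tissues. The sources used here do not place these probes relative to the mutated part, so the mutants are called labelled mutants throughout. Marker sums were highest in the tissue named for the brain, liver, B cell and thymocyte lists. Summed B cell markers ran from 1774 to 4350 in spleen against at most 388 in thymus, and summed thymocyte markers from 5539 to 12241 in thymus against at most 1674 in spleen. Summed brain markers ran from 19723 to 29344 in brain against at most 111 elsewhere, and summed liver markers from 60593 to 84437 in liver. Brain also read liver markers, at 12232 to 18811, and T cell markers, at 8574 to 15242 against 1121 to 2834 in spleen and 6645 to 17242 in thymus.

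Actb and Actg1 encode the cytoplasmic beta- and gamma-actins, whose monomers assemble into the filaments that shape cells, drive their movement and carry intracellular traffic. Both transcripts are made in nearly every cell type, and Actb is widely used as a reference transcript against which other genes are scaled. Actin genes are transcribed under serum response factor (SRF) and its coactivators of the MRTF family, which are held back by free actin monomers and bind through the CArG box, a short AT-rich element between CC and GG.

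Actb lies on mouse chromosome 5 at 142903115 to 142907976 and Actg1 on chromosome 11 at 120345687 to 120348495 (GRCm38.p6, RefSeq; Entrez genes 11461 and 11465). The sources used here do not say where along the Actb transcript each of its 5 probes lies. The promoter set used here held no entry for Actb, so the Actb promoter was not searched and nothing is said about a CArG box there. The Actg1 promoter is shown because it carries a CArG box, the element through which SRF acts on actin genes. The window is a stretch of 110 bases that lies upstream of the gene and stops short of its annotated start, at chr11:120348526-120348635 on the minus strand (GRCm38.p6, RefSeq), with the CArG box in capitals.

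Actg1 promoter: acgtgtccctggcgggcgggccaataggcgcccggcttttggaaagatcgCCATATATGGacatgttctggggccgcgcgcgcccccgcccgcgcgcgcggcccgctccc

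The element starts 90 bases before the annotated start and was found 1 time in the 300-base promoter. Of 32851 mouse promoters of that length, 535 (1.63%) held a CArG box on either strand. The match is a feature of the letters and was not set against any binding data.

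Values are deposited normalized intensities. A change is the mean of log2(intensity + 16) over labelled mutants less that over wild types, and its standard error (SE) comes from limma, a linear model that borrows the variance across probes. The offset shrinks changes of dim probes. Each line and tissue was normalized apart, and probes differ in how brightly they read a transcript, so changes and not levels were compared between probes.

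All 5 Actb probes lay above the noise on 94 of 94 arrays. The Actg1 probe, ILMN_2674763, lay above it on 10 of 94 arrays, with intensities between -9.04 and 7.72, and was bright enough to be tested in spleen and thymus alone. Its values therefore say little about gamma-actin. In thymus it passed in none of the 3 lines by limma with Benjamini-Hochberg adjustment. The smallest adjusted p was 0.531, in the Hmgn5 line, where the change was -0.20 (SE 0.0953). In spleen its change was -0.06, -0.02 and 0.12 in the Hmgn1, Hmgn3 and Hmgn5 lines (SE 0.0871 each).

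In spleen, a pair of Actb probes was higher in labelled mutants of all 3 lines, another pair was slightly higher, and the remaining probe was lower. The probe ILMN_2588055 had intensities of 65.7, 147, 136 and 99 in labelled Hmgn1 mutants, against 15.3, 31.6, 45.7 and 70.1 in wild types. In the Hmgn3 line it had 26.6, 36.3, 78.5 and 74.9 in labelled mutants, against 8.41, 19.7, 14.5 and 23.3 in wild types. In the Hmgn5 line it had 83.2, 91.4, 57.8 and 85.9 in labelled mutants, against 13.1, 8.93, 17.7 and 11.4 in wild types. Labelled mutants stood above wild types without overlap in the Hmgn3 and Hmgn5 lines, and in the Hmgn1 line 1 mutant lay below the brightest wild type. The log2 changes were 1.22, 1.05 and 1.72 in the Hmgn1, Hmgn3 and Hmgn5 lines (SE 0.267 each).

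The probe ILMN_2846865 kept close company with it. Its intensities were 70.1, 157, 171 and 113 in labelled Hmgn1 mutants, against 17.9, 28, 63.1 and 74.9 in wild types. They were 25.6, 48.4, 101 and 89.5 in labelled Hmgn3 mutants, against 6.04, 34.9, 14.8 and 26.9 in wild types. In the Hmgn5 line they were 95.6, 127, 60.1 and 125 in labelled mutants, against 18.3, 12.1, 42.1 and 20.3 in wild types. Only the Hmgn5 groups did not overlap for this probe, and its changes were 1.27, 1.12 and 1.60 (SE 0.344 each). Both probes are dim in wild-type spleen, where their medians over 12 arrays were 16.5 and 23.6.

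The probe ILMN_2617433 went the other way. It read 1534, 1131, 1141 and 863 in labelled Hmgn1 mutants, against 2575, 2050, 1865 and 1834 in wild types. It read 1004, 731, 185 and 595 in labelled Hmgn3 mutants, against 1421, 1204, 1143 and 977 in wild types. In the Hmgn5 line it read 374, 209, 260 and 266 in labelled mutants, against 596, 589, 491 and 534 in wild types. Labelled mutants lay below wild types without overlap in the Hmgn1 and Hmgn5 lines, and in the Hmgn3 line the brightest labelled mutant lay just above the dimmest wild type. The changes were -0.84, -1.11 and -0.98 (SE 0.297 each). Labelled Hmgn3 mutant 3, with the lowest value, weighed on the Hmgn3 change, which was -0.62 without it.

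The 2 brightest Actb probes differed less. ILMN_1377923 ran from 10337 to 13433 in labelled Hmgn1 mutants against 7166 to 11632 in wild types, from 7270 to 9787 in labelled Hmgn3 mutants against 4495 to 6774 in wild types, and from 6898 to 7664 in labelled Hmgn5 mutants against 4609 to 6840 in wild types. Its changes were 0.40, 0.57 and 0.39 (SE 0.15 each). ILMN_2698799 changed by 0.25, 0.27 and 0.27 (SE 0.0949 each), with 7812 to 9045 in labelled Hmgn5 mutants against 6111 to 7639 in wild types. Across the 5 probes, the changes of Actb in these spleens ran from -1.11 to 1.72. With values floored at 1 in place of the offset, the dim probes had larger changes, at 1.67 and 2.66 for ILMN_2588055 and 1.77 and 2.23 for ILMN_2846865 in the Hmgn3 and Hmgn5 lines.

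**Figure D1:**
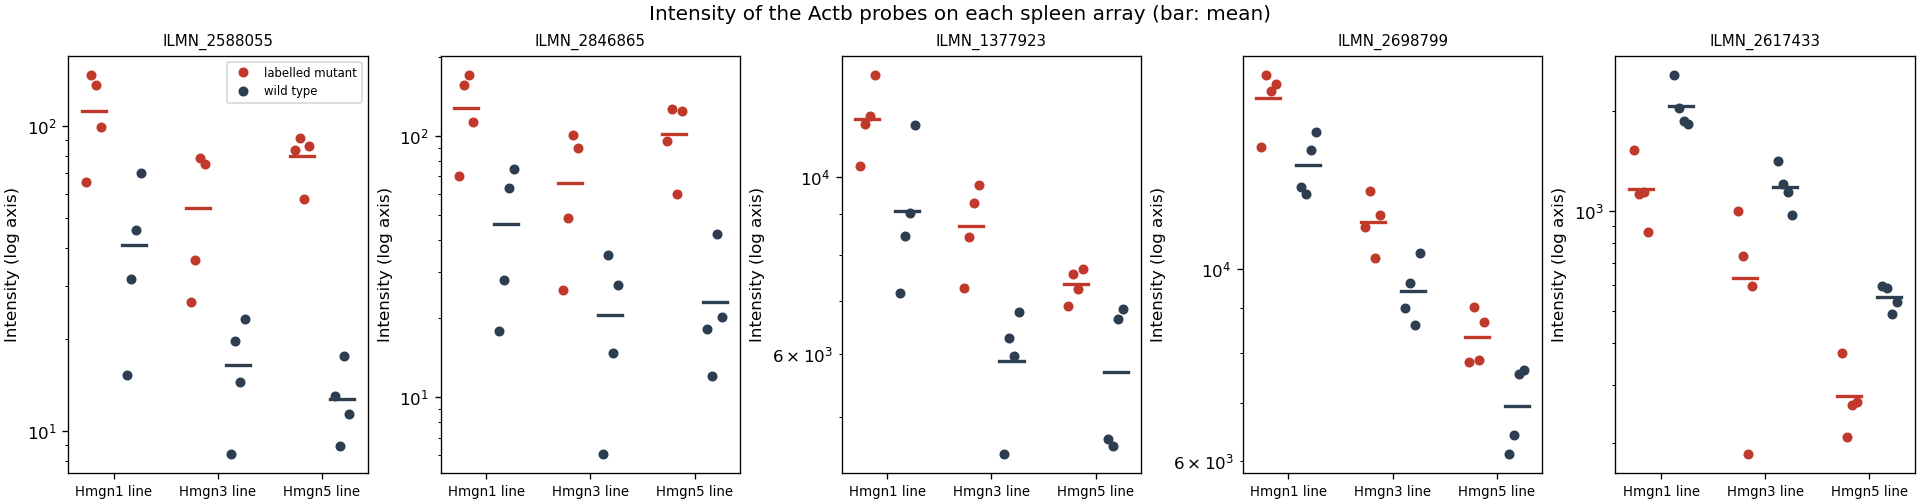
Intensity (log axis) of each Actb probe on every spleen array, with labelled mutants left of wild types in each line, 4 arrays a group and a bar at the mean. ILMN_2588055 and ILMN_2846865 are higher and ILMN_2617433 is lower in labelled mutants of all 3 lines.

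Of the 6 Actb and Actg1 probes, 1 had groups that did not overlap in Hmgn1 spleen, where 10.0% of all 18551 tested probes did so. The count was 2 of 6 in Hmgn3 spleen (7.76% of all probes) and 6 of 6 in Hmgn5 spleen (7.82% of all probes). Because these contrasts chose the genes, nothing is read from the counts. The median change of all tested spleen probes was 0.006, 0.007 and 0.004 in the Hmgn1, Hmgn3 and Hmgn5 lines. As bulk tissue was measured, fewer cells of a type and less RNA per cell cannot be told apart.

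Over the 3 spleen contrasts, ILMN_2588055 had the largest mean rise of the Actb probes and ILMN_2617433 the largest mean fall. They were paired for that reason, so the spleen differences of the pair are wide by choice. The choice also tilts their comparison with other tissues. The divergence was summed up as the log ratio of ILMN_2588055 to ILMN_2617433, on the same log2 scale. In spleen it averaged -3.23 ± 0.68 in labelled Hmgn1 mutants and -5.29 ± 0.83 in wild types (SD, n = 4 each). It averaged -3.07 ± 1.52 in labelled Hmgn3 mutants and -5.22 ± 0.51 in wild types, and -1.60 ± 0.42 in labelled Hmgn5 mutants and -4.31 ± 0.29 in wild types. The differences were 2.06 (SE 0.536), 2.16 (SE 0.799) and 2.70 (SE 0.256), and the groups did not overlap in any of the 3 lines, narrowly so in the Hmgn3 line, where the lowest labelled mutant had -4.58 and the highest wild type -4.66. With values floored at 1 before log2 in place of the offset, the difference in the Hmgn5 line was 3.68.

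Among genes with 2 or more tested probes, the spread between the highest and the lowest probe change was widest for Actb in all 3 spleen comparisons. The spread of Actb was 2.11, 2.23 and 2.70 in the Hmgn1, Hmgn3 and Hmgn5 lines, rank 1 of 3329 genes each time, beside a median of 0.20, 0.19 and 0.19 over those genes. Genes with at least 1 probe higher and another lower without overlap numbered 20 in Hmgn1 spleen (0.601% of such genes), 9 in Hmgn3 spleen (0.27%) and 10 in Hmgn5 spleen (0.3%). These ranks describe the contrast that chose Actb and are no test of it.

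Outside spleen none of the Actb probes passed. In brain, liver and thymus 0 of 45 tests of the 5 Actb probes were called by limma at an adjusted p under 0.05, and 2 had an unadjusted p under 0.05. The share of all probes called was also low there, at 0%, 0.0104% and 0.0208% in brain of the Hmgn1, Hmgn3 and Hmgn5 lines, 0.0318%, 0% and 0.419% in liver, and 0.0494%, 0.0110% and 0.0933% in thymus. The smallest adjusted p was 0.3, for ILMN_2698799 in Hmgn5 thymus, which read 9168 to 10923 in labelled mutants against 5992 to 8411 in wild types (change 0.40, SE 0.139, higher in 4 of 4 labelled mutants). The other was ILMN_1377923 in Hmgn5 liver, at 5099 to 5889 in labelled mutants against 3858 to 4880 in wild types (change 0.28, SE 0.111, adjusted p = 0.317 by limma). The SE of a change outside spleen ran from 0.103 to 0.86. It was widest for the dim probes in thymus, where differences of the size seen in spleen were not detectable with these arrays. For ILMN_2588055 and ILMN_2846865 it was 0.559 and 0.557 in brain, and it ran from 0.4 to 0.441 in liver. In Hmgn3 brain a change of 1.04 for ILMN_2588055, near its Hmgn3 change in spleen, was not called (adjusted p = 0.529 by limma). Groups did not overlap for 1 of 5 Actb probes in Hmgn1 liver (ILMN_2617433, change -0.31, 7.39% of all probes), 1 of 5 in Hmgn5 liver (10.6%) and 1 in Hmgn5 thymus (3.15%). They overlapped for all Actb probes in brain of the Hmgn1, Hmgn3 and Hmgn5 lines (4.22%, 3.40% and 4.67% of all probes did not), in Hmgn3 liver (3.36%) and in thymus of the Hmgn1 and Hmgn3 lines (6.03% and 5.32%). For none of the 5 Actb probes did the change differ between lines within brain, liver or thymus by limma's F test (smallest adjusted p 0.646).

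**Figure D2:**
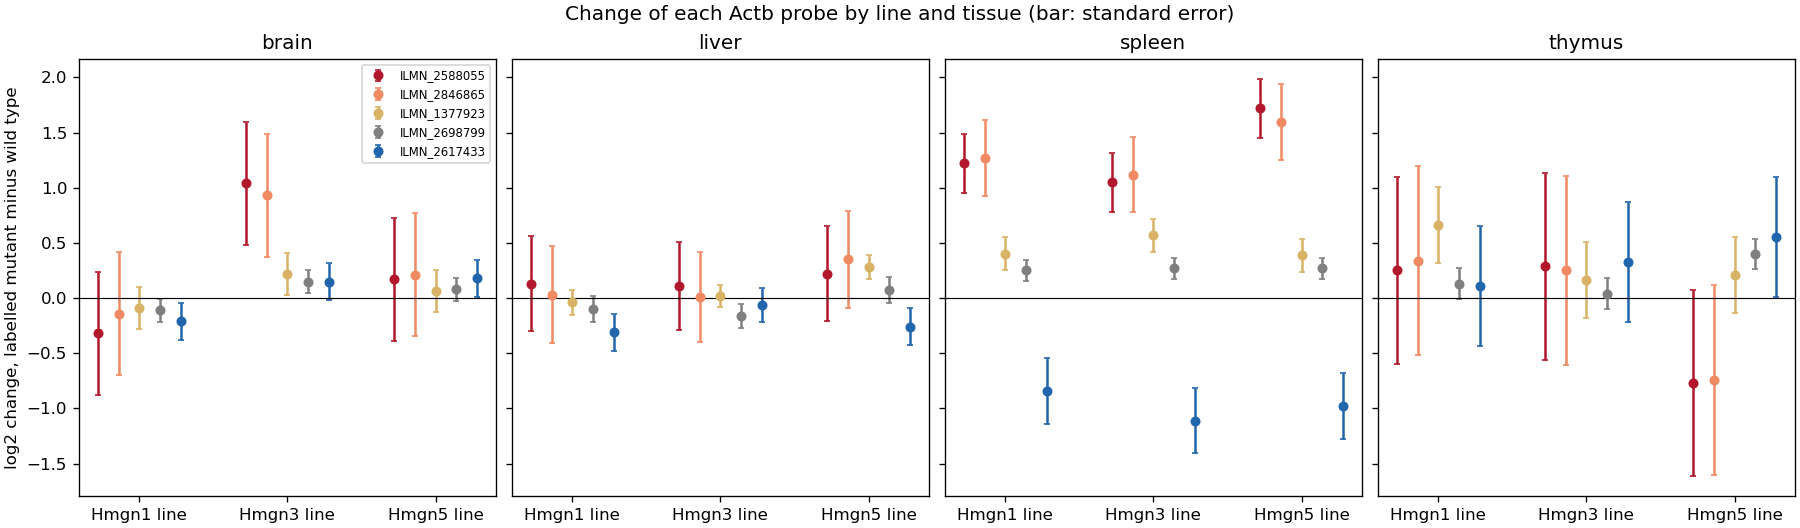
Change of each Actb probe (log2, labelled mutant minus wild type, bar: SE) in the 3 lines, 1 panel per tissue. In spleen the probes spread from -1.11 to 1.72, and in brain, liver and thymus none passed the test.

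The log ratio overlapped between labelled mutants and wild types in all 9 comparisons outside spleen. In liver it differed by 0.44 (SE 0.28), 0.16 (SE 0.135) and 0.48 (SE 0.753) in the Hmgn1, Hmgn3 and Hmgn5 lines. In thymus of the Hmgn1 and Hmgn3 lines the differences were 0.14 (SE 0.366) and -0.04 (SE 0.141), and in brain of the Hmgn1 and Hmgn5 lines -0.11 (SE 0.242) and -0.01 (SE 0.516). Hmgn3 brain and Hmgn5 thymus had wider differences, of 0.89 (SE 1.09) and -1.32 (SE 2.57), and in both 1 array set them.

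**Figure D3:**
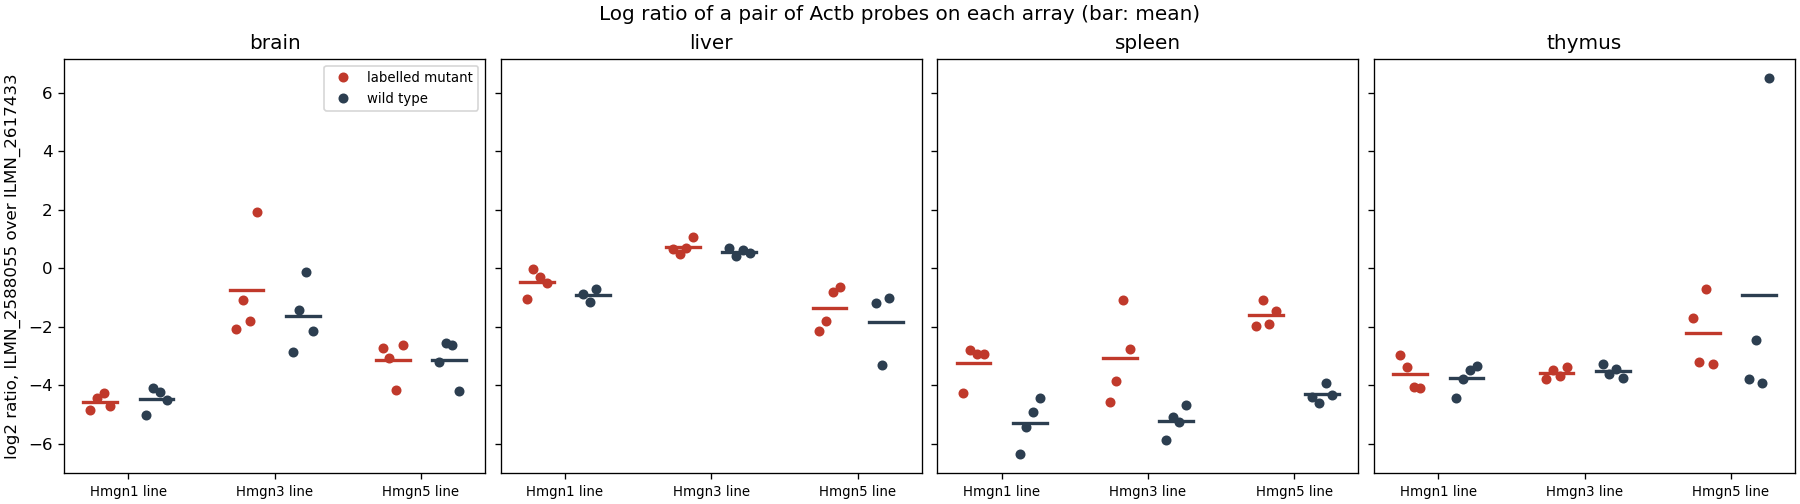
Log2 ratio of ILMN_2588055 to ILMN_2617433 on each array, 1 panel per tissue, labelled mutants left of wild types, with a bar at the group mean. The groups separate in spleen of all 3 lines, and a single labelled mutant brain (1.93) and a single wild-type thymus (6.52) stand far above the others of their groups.

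A set of 3 arrays stood apart in their Actb probes, and each was 1 tissue of 1 mouse. In brain of labelled Hmgn3 mutant 4, ILMN_2588055 read 3030, against 253 to 654 in the other 3 labelled mutants, ILMN_2846865 read 3426 and ILMN_1377923 12508. In thymus of Hmgn5 wild type 4, ILMN_2588055 read 4389, against 21.4 to 116 in the other 3 wild types, while ILMN_2617433 read 32, against 546 to 842. On this array 1 probe thus stood far above and another far below the rest of the group. In thymus of Hmgn1 wild type 1 the probes were low, with ILMN_1377923 at 1540, against 8025 to 9514 in the other 3 wild types, and ILMN_2588055 at 19.3, against 67.7 to 77.5.

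In spleen the 2 mice with high arrays lay within the range of their groups, and the mouse with the low thymus lay at the edge of its group. For ILMN_2588055 the Hmgn5 wild type had 11.4 in spleen (group range 8.93 to 17.7), 69.5 in brain and 352 in liver, and the labelled Hmgn3 mutant had 74.9 in spleen (group range 26.6 to 78.5), 780 in liver and 37.5 in thymus. Hmgn1 wild type 1 had the lowest ILMN_2588055 of its group in spleen (15.3, against 31.6 to 70.1), the highest ILMN_2617433 (2575, against 1834 to 2050) and the lowest log ratio (-6.37). Across all probes the first 2 of these arrays lay farthest from the others of their group in their tissue, at a root mean square log2 distance of 0.605 in brain (median of brain arrays 0.264) and 0.566 in thymus (median of thymus arrays 0.261). Hmgn1 wild type 1 lay at 0.283. Without the 3 arrays, the log ratio differed by -0.01 (SE 0.728) in Hmgn3 brain, by -0.08 (SE 0.346) in Hmgn1 thymus and by 1.15 (SE 0.828) in Hmgn5 thymus, and 0 of the Actb probes were called by limma in these comparisons. Without Hmgn5 wild type 4 the changes of ILMN_2588055, ILMN_2846865 and ILMN_2617433 in Hmgn5 thymus were 0.73, 0.78 and -0.42, against -0.77, -0.74 and 0.55 with it.

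Within groups, the probes fell into sets that varied together. After each group was centred on its own mean, ILMN_2588055 and ILMN_2846865 had a Pearson r of 0.94 over 24 spleen arrays (Spearman's rho 0.94, r 0.92 without the 2 arrays farthest from the median), 0.98 in brain, 0.98 in liver and 0.99 in thymus. ILMN_2588055 and ILMN_2617433 had an r of -0.61 in spleen (rho -0.56, r -0.51 without the 2 farthest arrays). Outside spleen that opposition was not general: r was 0.33 in liver, -0.16 in brain without the array apart (-0.43 with it) and -0.02 in thymus without both arrays apart (-0.80 with them). ILMN_1377923 and ILMN_2588055 had an r of 0.71 in spleen, 0.70 in liver and 0.69 in brain without the array apart. Points of a correlation share the normalization of their set, and no p is given.

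In spleen the Actb probes also varied along the replicate number that the labels give within each group, whose meaning the labels do not state. Over 24 arrays, with each group at its own mean, the log ratio had a slope of 0.39 per unit of replicate number (SE 0.12). The slope was 0.42 (SE 0.225) over the 12 labelled mutants and 0.36 (SE 0.0985) over the 12 wild types. By line it was 0.51 (SE 0.132) in Hmgn1, 0.59 (SE 0.29) in Hmgn3 and 0.08 (SE 0.12) in Hmgn5. These are descriptions, as the trend was part of how the genes were chosen.

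By probe the slopes were 0.26 (SE 0.0838) for ILMN_2846865, 0.20 (SE 0.0646) for ILMN_2588055, 0.15 (SE 0.0222) for ILMN_1377923, 0.05 (SE 0.0191) for ILMN_2698799 and -0.19 (SE 0.0765) for ILMN_2617433. By size they ranked 8, 47, 193, 4163 and 51 among 18551 tested probes, whose median slope was 0.001. In other tissues the log ratio had slopes of 0.18 (SE 0.118) in liver, 0.04 (SE 0.139) in brain and -0.13 (SE 0.137) in thymus, the last 2 without the arrays apart. With them the slopes were 0.21 (SE 0.181) in brain and 0.44 (SE 0.385) in thymus. In liver, wild types of the Hmgn1 and Hmgn5 lines were numbered anew. A number there can name another mouse than in spleen, as Hmgn5 wild type 4 of spleen was 3 in liver.

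**Figure D4:**
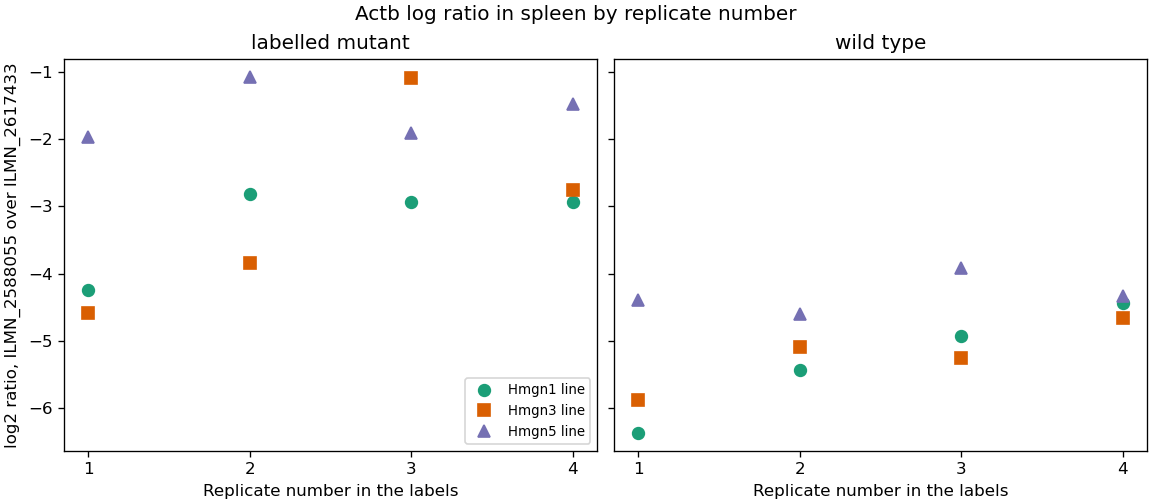
Log2 ratio of ILMN_2588055 to ILMN_2617433 in spleen against the replicate number in the labels, labelled mutants on the left and wild types on the right, 1 symbol per line. Arrays numbered 1 of the Hmgn1 and Hmgn3 lines hold the lowest log ratio of their group, and the Hmgn5 line shows little slope (0.08).

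Over all wild types, the Actb probes differed in the tissue where they read highest. Lines and tissues were normalized apart, so these levels are descriptions. ILMN_2588055 had a median of 393 in liver (66.1 to 586), 142 in brain (48.1 to 699), 38.3 in thymus (14.3 to 4389) and 16.5 in spleen (8.41 to 70.1). ILMN_2846865 followed the same order, with medians of 466, 191, 44.7 and 23.6. ILMN_2617433 was ordered differently, with 1367 in brain (775 to 2070), 1174 in spleen (491 to 2575), 626 in thymus (32 to 1142) and 514 in liver (287 to 1004). ILMN_2698799 had 9321 in spleen, 7995 in thymus, 5596 in brain and 3002 in liver, and ILMN_1377923 had 7564 in thymus, 6704 in spleen, 5747 in brain and 4509 in liver. Neighbours in each of these orders overlapped in range over their 10 to 12 arrays. By line, ILMN_2617433 had a higher median in spleen than in brain in the Hmgn1 line (1958 and 1614) and the Hmgn3 line (1174 and 907), and a lower one in the Hmgn5 line (562 and 1367). With all 94 arrays quantile-normalized together, ILMN_1377923, ILMN_2617433 and ILMN_2698799 shared 1 order, of spleen, thymus, brain and liver from high to low. ILMN_2588055 then ran from liver through thymus and brain to spleen, and ILMN_2846865 from liver through thymus and spleen to brain. The place of brain and thymus thus depended on the scaling. Over all wild types, liver was lowest for the first 3 probes and highest for the other 2 under both. By line, liver was not always lowest. ILMN_1377923 had a higher median in liver than in brain in the Hmgn1 line (4982 and 3509). ILMN_2617433 had 792 in liver of the Hmgn5 line, against 626 in thymus and 562 in spleen.

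Other genes moved with single Actb probes in spleen when groups were centred. ILMN_2617433 was most like the probes of Eef2, a translation elongation factor (r 0.94), Rbbp7, a histone-binding chaperone subunit (0.93), and Ddx5, an RNA helicase (0.92), out of 18551 tested probes over 24 arrays. Their rho values were 0.82, 0.85 and 0.85, and without Hmgn3 labelled mutants 1 and 3, the farthest arrays, r was 0.79, 0.79 and 0.84. All 3 had negative changes in each line, Eef2 with -0.72, -1.31 and -0.83, Rbbp7 with -0.63, -0.67 and -0.57, and Ddx5 with changes between -1.39 and -0.65 over the Hmgn1, Hmgn3 and Hmgn5 lines. In thymus without the arrays apart the likeness held for Eef2 (r 0.83) more than for Ddx5 (0.55) and Rbbp7 (0.47).

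ILMN_2588055 was most like Abca7, a lipid transporter (r 0.83), Pdxp, a phosphatase that acts on the actin-severing protein cofilin (0.83), and Actn2, a muscle actin crosslinker (0.82). ILMN_2846865 shared Actn2 (0.87) and Abca7 (0.81) with it and added Srprb, a subunit of the signal recognition particle receptor (0.81). ILMN_1377923 was most like Bcl9l, Rcan3 and Mrpl37 (0.85 each), and ILMN_2698799 most like Ldb1 (0.86), Parva, which links integrins to actin (0.84), and Col6a1 (0.83). The Actg1 probe, at noise level, had its highest r with Olfr1093 (0.78), Galnt18 (0.76) and Reep2 (0.76). Across these probes r in thymus without the arrays apart ranged widely, for example 0.61 for Bcl9l, -0.25 for Rcan3 and 0.26 for Abca7 with ILMN_2588055.

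The divergence within Actb had counterparts within other genes. Over 6639 probe pairs of 3328 other genes with 2 or more probes, the log ratio within a gene had an absolute r of at least 0.8 with the Actb log ratio for 35 pairs (0.527%) in 30 genes, and of at least 0.5 for 772 pairs (11.6%). The 5 genes of highest r were Btg1, which restrains proliferation (0.90), H2-Ab1, a class II antigen-presenting chain (0.90), Ddx39b, a helicase of mRNA splicing and export (0.89), Tmed4, a cargo receptor of the secretory pathway (0.89), and Atp6v0d1, a subunit of the vacuolar proton pump (0.88). Their rho values lay between 0.77 and 0.89, and without Hmgn3 labelled mutants 1 and 3 their r lay between 0.76 and 0.83. In each of the 5 genes one probe had a negative change in all 3 lines, between -1.05 and -0.29, and the other a change between -0.08 and 0.37, as in Btg1, at 0.24 and -0.84 in Hmgn1, 0.28 and -1.05 in Hmgn3, and 0.04 and -0.80 in Hmgn5. H2-Ab1 had 0.37 for one probe and -0.46 for the other in Hmgn3, and Atp6v0d1 had 0.15 and -0.78.

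**Figure D5:**
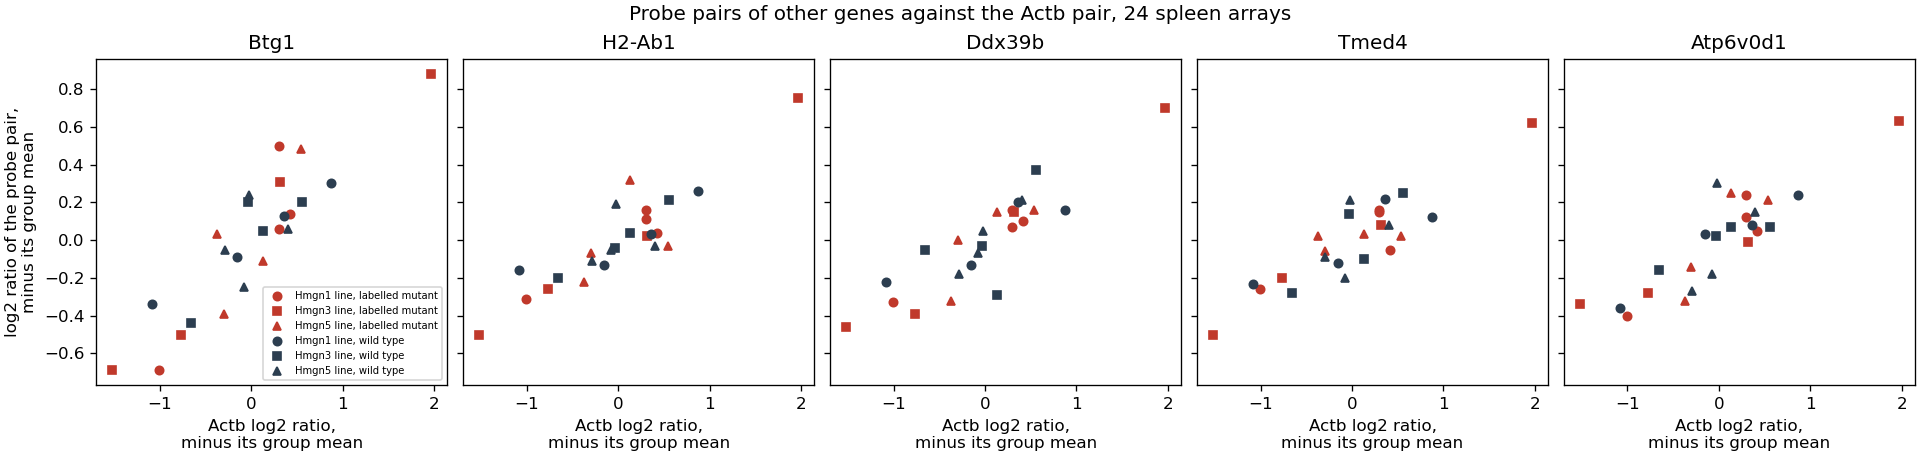
Log2 ratio of a probe pair within Btg1, H2-Ab1, Ddx39b, Tmed4 and Atp6v0d1 (vertical) against the Actb log2 ratio (horizontal) on 24 spleen arrays, each minus its group mean, coloured by genotype and marked by line. The points climb together, with r from 0.88 to 0.90, and the farthest point on the right is labelled Hmgn3 mutant 3.

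The 3 arrays that stood apart had no part in picking these 5 genes, which were chosen in spleen. The arrays themselves were singled out by their Actb probes. How many probe pairs of other genes shifted likewise on them was not counted, so nothing is read from the number of genes that did. In thymus of Hmgn5 wild type 4 the Actb log ratio was 6.52, against -3.91 to -2.45 in the other 3 wild types. On that array H2-Ab1 had a log ratio of 3.48, against -0.23 to -0.02, with one of its probes, ILMN_2631423, at 77 against 2007 to 2088. Ddx39b had 8.23, against 5.57 to 5.72, and Atp6v0d1 4.70, against 1.87 to 2.08. All 5 genes stood above the other wild types there, by 1.60 to 3.59 from their mean.

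In brain of labelled Hmgn3 mutant 4 the Actb log ratio was 1.93, against -2.06 to -1.08 in the other 3 labelled mutants, and all 5 genes were again higher, by 0.91 to 2.02. Btg1 was at 3.24, against 1.37 to 1.66, and Atp6v0d1 at 2.94, against 0.70 to 1.06. For H2-Ab1 both probes were dim and higher there, at 55.5 against 12.6 to 16.3 and at 45.3 against 29.2 to 40.5. In thymus of Hmgn1 wild type 1 the Actb log ratio was lower, at -4.42 against -3.79 to -3.34, and the 5 genes were lower too, by 0.14 to 0.50. Without the 3 arrays, r between these genes and Actb in thymus was 0.75 for Ddx39b, 0.46 for H2-Ab1, 0.27 for Atp6v0d1, 0.11 for Tmed4 and 0.08 for Btg1, against 0.85 to 0.96 with them. Over all genes with several probes, the median spread of probe deviations on an array was highest on the first 2 of these arrays, at 0.474 in thymus (median of thymus arrays 0.254) and 0.594 in brain (median of brain arrays 0.238). Actb ranked 1 of 3253 genes by that spread on Hmgn5 wild type 4 and 2 of 3546 on labelled Hmgn3 mutant 4. It ranked 1 on 6 thymus and 3 brain arrays in all. Deviations were taken from the mean of the group's other arrays. For Hmgn5 thymus wild types 1, 2 and 3 and labelled Hmgn3 mutant brain 1, that mean held an array apart. The rank was also 1 in groups without one, on labelled Hmgn5 mutant thymus 2 and 3 and Hmgn3 wild-type brain 1 and 3. The part of such array-wide differences in the spleen contrasts was not tested. In spleen the median spread ran from 0.199 to 0.281. In the Hmgn1 line it ran from 0.23 to 0.281 in labelled mutants against 0.199 to 0.216 in wild types. In the Hmgn3 line it ran from 0.234 to 0.269 in labelled mutants against 0.222 to 0.234 in wild types. The ranges were alike in the Hmgn5 line, at 0.225 to 0.242 in labelled mutants and 0.229 to 0.242 in wild types.

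Of 35 tested actin-binding and filament genes, 14, 20 and 17 were higher in labelled mutants in Hmgn1, Hmgn3 and Hmgn5 spleen. By limma 0 of them were called in Hmgn1 spleen (3.08% of all probes were called there), 1 was called higher in Hmgn3 spleen (2.06%) and 1 was called higher in Hmgn5 spleen (0.900%), which is near those shares. Their median changes were -0.07, 0.03 and -0.01. Fscn1, which bundles filaments in dendritic cells, rose in labelled Hmgn3 mutants (129 ± 32.4, against 64.5 ± 20.4 in wild types, SD, n = 4 each; change 0.86, adjusted p = 0.0463 by limma) and was at 0.65 and 0.77 in the Hmgn1 and Hmgn5 lines without passing. Cotl1, an actin-binding protein of leukocytes named after its value was seen, rose in labelled Hmgn5 mutants (657 ± 60.9, against 474 ± 13.8 in wild types; change 0.45, adjusted p = 0.0196 by limma). Gsn, which severs filaments, was at 0.53, 0.42 and 0.38, Msn, which ties the membrane to actin, at -0.80, -0.91 and -0.88, and Lcp1, the leukocyte plastin, at -0.63, -0.46 and -0.60, none of them called. Both calls were marginal: leaving out single arrays of the line, Fscn1 passed in 2 of 8 fits (adjusted p from 0.0271 to 0.19 by limma, lost without wild types 1, 2 or 3 or labelled mutants 2, 3 or 4) and Cotl1 in 3 of 8 (adjusted p from 0.0125 to 0.0731, lost without wild types 1 or 2 or labelled mutants 2, 3 or 4).

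Of 16 SRF pathway genes, 12, 14 and 9 were higher in labelled mutants in Hmgn1, Hmgn3 and Hmgn5 spleen, with median changes of 0.11, 0.13 and 0.04. By limma 1 was called higher in Hmgn1 spleen (3.08% of all probes called) and 0 in Hmgn3 spleen (2.06%) and Hmgn5 spleen (0.900%). The called gene was Fhl2, an SRF target named after its value was seen, at 15.7 ± 7.72 in labelled mutants and 5.62 ± 2.73 in wild types (SD, n = 4 each; change 0.53, adjusted p = 0.0286 by limma). It passed in 4 of 8 fits with an array of the line left out (adjusted p from 0.00807 to 0.129, lost without wild types 1 or 2 or labelled mutants 3 or 4). Acta2, the smooth muscle actin, was at 0.30, 0.42 and 0.39, and Cnn2 at 0.32, 0.42 and 0.13. At the lower end the SRF coactivator Mrtfa was at -0.25, 0.04 and -0.05, and Cnn1 at -0.12, -0.06 and -0.05. Of the 15 genes of this list with a promoter, 5 held a CArG box, against 3 of 38 among actin-binding genes.

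Of 12 tested genes that are commonly used as references besides actin, 0 were called in Hmgn1 spleen (3.08% of all probes called) and Hmgn5 spleen (0.900%). In Hmgn3 spleen (2.06%) 1 was called, which is near that share. It was Eef2, which fell (298 ± 194 in labelled mutants, 620 ± 126 in wild types, SD, n = 4 each, adjusted p = 0.0481 by limma). Eef2 passed in 2 of 8 fits with an array of the line left out (adjusted p from 0.00785 to 0.149, held without labelled mutants 1 or 2 alone), and its change was -0.73 without labelled mutant 3, against -1.31 with it. Hprt, a purine salvage enzyme, was at -0.31, -0.36 and -0.35 without passing, Rpl13a at 0.21, 0.45 and -0.21, and Ywhaz at 0.06, 0.27 and 0.10. Gapdh, named after its values were seen, was at -0.01, 0.04 and -0.00, with 2151 ± 309 in labelled Hmgn1 mutants and 2147 ± 136 in wild types. Outside spleen 0 members of these 3 lists were called by limma in any line, where at most 0.419% of all probes were called.

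Actins of muscle were called in none of the 12 comparisons, in which at most 3.08% of all probes were called. In spleen Actg2, the enteric smooth muscle actin, was at 0.80, 0.42 and 0.79 (adjusted p = 0.0957, 0.5 and 0.132 by limma), while Acta1 and Actc1, the striated muscle actins, were near the noise. In thymus Acta1 varied with single arrays, at 810 ± 916 in labelled Hmgn3 mutants and 14.5 ± 29.9 in wild types (SD, n = 4 each).

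Markers of other cell types differed in the same spleens. Of 8 smooth muscle markers, 0 were called (3.08%, 2.06% and 0.900% of all probes called in Hmgn1, Hmgn3 and Hmgn5). In labelled mutants of each line 7 of the 8 markers were higher. Their summed intensity ran from 4759 to 7336 in labelled Hmgn1 mutants against 4250 to 5048 in wild types, from 4701 to 6053 in labelled Hmgn3 mutants against 3909 to 4880, and from 3680 to 5724 in labelled Hmgn5 mutants against 2911 to 4212. Striated muscle markers were close to absent, with sums between 17 and 83.7 over all spleens.

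Summed intensity of 6 macrophage markers ran from 4780 to 6975 in labelled Hmgn1 mutants against 6904 to 8649 in wild types, from 3235 to 3976 in labelled Hmgn3 mutants against 3998 to 6472, and from 3505 to 4017 in labelled Hmgn5 mutants against 3905 to 5525. The single markers did not all follow that sum, since 1, 4 and 5 of the 6 were higher in labelled Hmgn1, Hmgn3 and Hmgn5 mutants, and 1 was called lower by limma in the Hmgn1 line (3.08% of all probes called) and 1 in the Hmgn3 line (2.06%). Summed B cell markers ran from 3398 to 3868 in labelled Hmgn1 mutants against 3857 to 4350 in wild types, from 2270 to 2508 in labelled Hmgn3 mutants against 2194 to 2376, and from 1840 to 2229 in labelled Hmgn5 mutants against 1774 to 2097. Of 4 tested T cell markers, 3, 4 and 4 were higher in labelled Hmgn1, Hmgn3 and Hmgn5 mutants (median changes 0.25, 0.24 and 0.34). By limma 1 of them was called higher, in the Hmgn3 line (2.06% of all probes called). Of 5 neutrophil markers, 4, 0 and 2 were higher (medians 0.18, -0.27 and -0.04), and of 4 fibroblast markers 3, 3 and 4 (medians 0.12, 0.03 and 0.38). Of 3 erythroid markers, 3, 1 and 1 were higher (medians 0.22, -0.14 and -0.11). The part of these cell types in the Actb differences was not tested.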

How the data were processed

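The deposited value table gives intensity per probe and array. It had been background-corrected by the authors, since 19.1 to 29.1 percent of each array's values are negative, and normalized separately by line and tissue, since arrays of such a set share their quantiles. Per the submitters' processing notes GenomeStudio 2011.1 was used. Which normalization was applied is not stated in these sources. A second table, of raw signals, was left out because none of its 188 columns could be tied to a sample. The number of arrays limits the precision, and replicate arrays are separate mice.

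Genes come from the platform annotation. Negative values were set to 0 and the offset of 16 was added before log2. Noise was the root mean square of an array's negative values, and probes above 1.64 times it on 3 or more arrays of a tissue were kept. For each tissue, limma 3.58.1 (R 4.3.3) took all 6 groups in one model, with two-sided tests and Benjamini-Hochberg adjustment over the kept probes at 0.05. Log ratios, slopes and correlations used numpy 2.4.6. The model was tested on simulated data.

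Named were all Actb and Actg1 probes, the 3 probes most like each over spleen arrays, the 5 genes whose probe log ratio was most like that of Actb, the 2 highest and 2 lowest members of each gene list, the muscle actins and the targeted genes. Members and lists were chosen with earlier results of these data known. Alternatives were a floor of 1, other filters (none, or 2.33 times the noise on 50 percent of arrays), quantile normalization over lines, array weights, fits of 1 line, a replicate block and leaving out single arrays. Leaving out 3 arrays that stood apart, and the alternatives for 4 list members called in spleen, were chosen after seeing the data.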

Additional observations from a re-analysis of the deposited data

Results flagged for a closer look

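In 8 of 110 tests of Actb probes in groups of 4 arrays, 1 array lay far from the other 3 by Dixon's test, which chance would give in about 1 of 20 groups. Brain of labelled Hmgn3 mutant 4 was far above for ILMN_1377923 (12508), ILMN_2588055 (3030) and ILMN_2846865 (3426). Thymus of Hmgn5 wild type 4 was far above for ILMN_2588055 (4389) and ILMN_2846865 (5305). Thymus of Hmgn1 wild type 1 was far below for ILMN_2588055 (19.3) and ILMN_2698799 (7672), and thymus of labelled Hmgn3 mutant 3 for ILMN_1377923 (5589, against 6165 to 6268 in the other 3 labelled mutants). None of these lay in spleen.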

How the results depend on the processing

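Counts of called Actb and Actg1 probes outside spleen were 0 in all 139 alternative fits by limma. In spleen all 225 alternative values of the 15 Actb probe changes kept their sign, and 221 lay within the spread between arrays. The other 4 came from the floor of 1, at 1.67 and 2.66 for ILMN_2588055 and 1.77 and 2.23 for ILMN_2846865 in Hmgn3 and Hmgn5. Among the 225, values from other filters, the replicate block and fits of 1 line equal the main change by construction. Only the floor, quantile normalization, array weights and leaving out arrays could alter a change in spleen. The log ratio difference ran from 1.70 to 2.40 in Hmgn1, 1.50 to 2.66 in Hmgn3 and 2.52 to 2.84 in Hmgn5 when 1 array was left out, and was 3.68 in Hmgn5 with values floored at 1, where the cause was not tested. The slope on replicate number was 0.32 to 0.44 without 1 array, and 0.59 in the Hmgn3 line and 0.08 in the Hmgn5 line alone; the cause was not tested. In Hmgn5 thymus the changes turned with array weights for ILMN_2588055 (0.20), ILMN_2846865 (0.16) and ILMN_2617433 (-0.29), and without the 3 arrays apart (0.73, 0.78 and -0.42). Leaving out 1 array gave -1.56 to 0.73, -1.60 to 0.78 and -0.42 to 0.97 for these probes, the turned values being those without Hmgn5 wild type 4. In Hmgn3 brain it gave 0.28 to 1.45 for ILMN_2588055 and 0.19 to 1.34 for ILMN_2846865, lowest without labelled mutant 4.

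Equal replicate numbers did not pair the arrays in general. Deviations of same-numbered arrays correlated over 0.1 in 1 of 12 pairs in brain, 0 of 10 in liver, 3 of 12 in spleen and 0 of 12 in thymus. In spleen r varied most, from -0.45 to 0.48 (median 0.02), with 0.41 and 0.48 for replicates 2 and 3 of the Hmgn1 line. With the replicate block 0 of the probes were called outside spleen. In spleen every group holds the same replicate numbers. The block therefore leaves the log ratio differences at 2.06, 2.16 and 2.70 by construction, and says nothing about the replicate number there. Over 15 alternatives each, chosen after seeing the data, the spleen calls of Fscn1, Cotl1, Fhl2 and Eef2 held in 6, 8, 8 and 6, always with the same direction. Dim probes limit the precision, since ILMN_2588055 and ILMN_2846865 lie near the offset in wild-type spleen.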
